A study of Mus musculus with 6 samples.

Results

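Microglia are the resident macrophages of the brain, and the genes described here mark them or serve their work with complement, the protein system that tags debris and synapses for uptake. The list of 31 genes was applied to brain tissue of 3 Gb5-deficient mice and 3 wild-type mice, measured on 6 single-colour Affymetrix expression arrays. Each gene was read from the probes annotated to that symbol alone, using the probe with the highest mean over the 6 arrays. A probe of this kind was listed for 29 of the 31 genes. C3, the central complement component, and Spp1, the secreted phosphoprotein osteopontin, had none listed and were not analysed here. Of the 29, 27 lay above the filter on dim genes and were tested, out of 14067 genes tested in all. The filter was a mean signal of 4.7 (log2), the 30th percentile of all probe means.

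The tested mice carry a loss of Gb5, the G protein beta subunit encoded by Gnb5, and the comparison addresses which transcripts differ in its absence. The series title names the cerebellum, while the sample labels say brain tissue. The labels describe cohorts of littermates matched for age and sex, and give no age, sex, strain or allele for a single mouse. Nothing in them says that tissue of several mice was pooled. Gnb5 read 3.65, 3.36 and 2.96 in Gb5-deficient mice, against 8.80, 8.51 and 8.70 in wild-type mice (log2), so the arrays carried the labelled genotype. Gb5-deficient array 6 stood apart: its Xist probes read 6.64, 6.27 and 8.22, against 10.76 or more on each other array, and the brighter probe of Eif2s3y, a gene of the Y chromosome, gave 11.80 there and 3.43 or less elsewhere. By these genes array 6 read as male and each other array as female, which goes against sex-matched cohorts. No wild-type array read as male, and sex was not in the model. Gapdh control probes at the 3′ end exceeded those at the 5′ end, a measure of RNA integrity and copying, by 1.58 on that array, 1.14 and 1.07 on the other Gb5-deficient arrays and 1.03 to 1.04 on the wild-type arrays (log2).

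As background, microglia depend on signalling through the receptor Csf1r and keep a resting, or homeostatic, programme that includes the fractalkine receptor Cx3cr1 and the purinergic receptor P2ry12. Both of these receptors couple to inhibitory G proteins. In injury and disease the homeostatic genes fall while genes of phagocytosis, lysosomes and immunoreceptor signalling through Trem2 and its adaptor Tyrobp rise. In the brain, microglia are the main source of C1q, the recognition protein that starts the classical complement pathway and is built from the products of C1qa, C1qb and C1qc. The tissue markers were in place: Gabra6, a receptor subunit of cerebellar granule cells, averaged 12.45 ± 0.39 in Gb5-deficient mice and 12.63 ± 0.22 in wild-type mice (log2, SD, n = 3 each).

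No microglial or complement gene passed the test between Gb5-deficient and wild-type mice. By limma, 0 of 27 passed an adjusted p of 0.05, against 0.0355% of all genes tested, and 0 of 27 had an unadjusted p under 0.05, against 8.57% of all genes. The lowest adjusted p among them was 0.612. Differences, Gb5-deficient minus wild type, ran from -0.14 for C1qb to 0.26 for Itgb2 (log2), with 13 above and 14 below 0. Over all genes tested, 56.7% of values were above 0 and 43.3% below. The median of the 27 was -0.01, beside a median of 0.03 over all genes tested. In none of the 27 did the 3 Gb5-deficient arrays lie on one side of the 3 wild-type arrays. Over all genes the groups did not overlap in 14.9%, with Gb5-deficient higher in 10.1% and lower in 4.82%.

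The 95% intervals bound how large a difference these arrays leave room for. The median distance from estimate to interval end was 0.29 (log2), and the median SE was 0.13, beside 0.12 over all genes tested. Each of the 27 intervals lay within -1 and 1, where 1 is a change of signal by a factor of 2, and 23 lay within -0.5 and 0.5. The lowest bound was -0.47, for P2ry12, and the highest was 0.59, for Itgb2. RMA values are compressed for dim probes, so these bounds are on the array's signal and not on RNA amounts. Because each sample is bulk tissue, fewer microglia and less RNA per microglial cell cannot be told apart in any of these values.

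**Figure D1:**
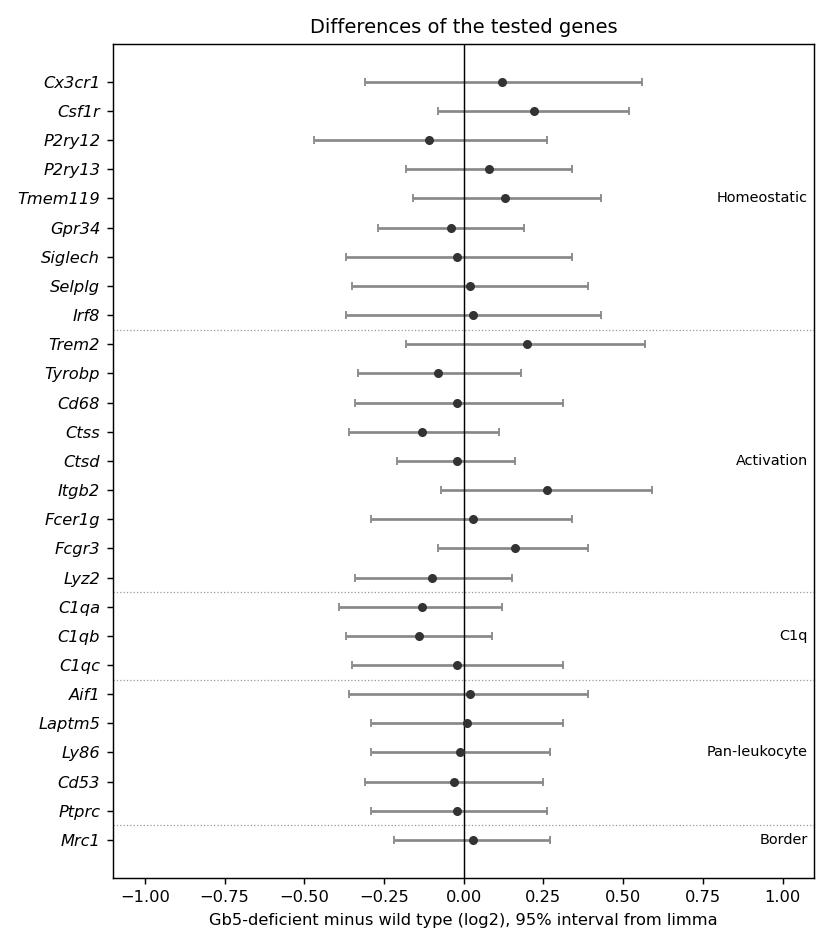
Difference in signal, Gb5-deficient minus wild type (log2, horizontal axis), for the 27 tested genes; points are limma estimates and bars their 95% intervals, and dotted lines separate the role groups. All 27 intervals cross 0, and none reaches -1 or 1.

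In all 9 homeostatic genes the groups overlapped, while over all genes tested 14.9% did not overlap. Without Gb5-deficient array 4 the groups of Csf1r, P2ry13, Tmem119 and Cx3cr1 did not overlap, as for 36.4% of all genes. Without Gb5-deficient array 5 those of P2ry12 did not, as for 25.8%. Of the 9, all tested, 6 had values above 0 and 3 below, with a median difference of 0.03 (log2) and none passing. Csf1r, the receptor for the survival factors Csf1 and Il34, had the largest value. It read 11.46, 11.83 and 11.99 in Gb5-deficient mice, against 11.41, 11.58 and 11.64 in wild-type mice. The Gb5-deficient arrays spread from within the wild-type range to above it, and the difference was 0.22 (SE 0.13, 95% interval -0.08 to 0.52, adjusted p = 0.617). Both other Csf1r probes gave 0.17 (log2). With 1 array left out the Csf1r difference ran from 0.11, without Gb5-deficient array 6, to 0.37, without Gb5-deficient array 4.

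Cx3cr1, which senses the neuronal chemokine Cx3cl1, read 7.13, 7.94 and 7.61 in Gb5-deficient mice, against 7.40, 7.52 and 7.39 in wild-type mice. The wild-type arrays lay close together and the Gb5-deficient arrays fell on both sides of them. The difference was 0.12 (SE 0.19, adjusted p = 0.826), and it was 0.34 without Gb5-deficient array 4 and -0.07 without array 5. P2ry12, the ADP receptor that guides microglial processes to injury, read 7.22, 7.52 and 6.94 in Gb5-deficient mice, against 7.23, 7.26 and 7.51 in wild-type mice. Here array 6 was the lowest of the 6 and array 5 the highest, and the difference was -0.11 (SE 0.16, adjusted p = 0.822). Its sign turned without array 6 (0.04), and it was -0.25 without array 5. Tmem119, a surface protein used to tell microglia from other macrophages, read 7.68, 7.95 and 7.96 in Gb5-deficient mice, against 7.55, 7.79 and 7.85 in wild-type mice, again overlapping, with a difference of 0.13 (SE 0.13, adjusted p = 0.728) that ran from 0.04 to 0.22 with 1 array left out.

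The other homeostatic genes lay nearer to 0. P2ry13, an ADP receptor encoded beside P2ry12, averaged 8.29 ± 0.15 in Gb5-deficient mice and 8.21 ± 0.09 in wild-type mice (log2, SD, n = 3 each). Gpr34, a lysophosphatidylserine receptor, varied little between arrays, at 6.97 ± 0.05 in Gb5-deficient mice and 7.01 ± 0.08 in wild-type mice. Siglech, a sialic acid-binding lectin, had a difference of -0.02, and Selplg, the P-selectin ligand, one of 0.02. Irf8, a transcription factor that macrophages and microglia need, was dim, at 5.27 ± 0.24 in Gb5-deficient mice and 5.24 ± 0.27 in wild-type mice, and both its probes gave 0.03.

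**Figure D2:**
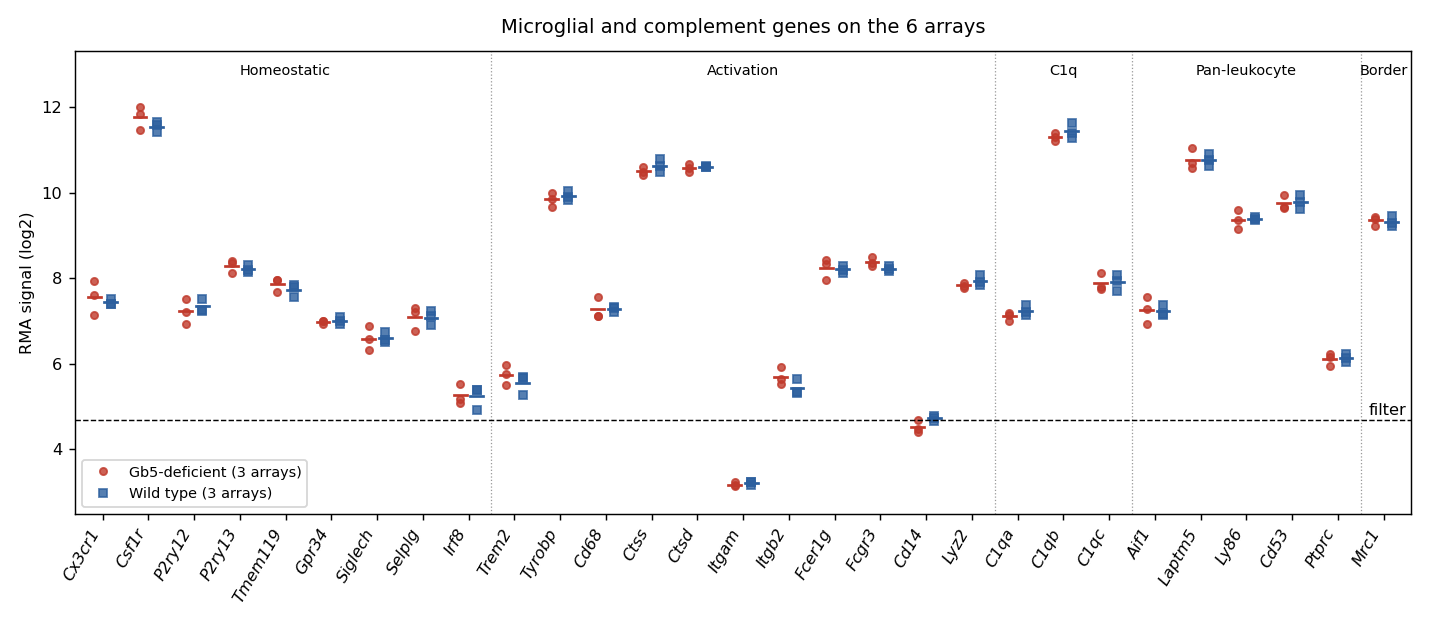
Signal (log2, vertical axis) of the 29 genes with a probe on each of the 6 arrays, Gb5-deficient as circles left of wild type as squares, with bars at the means of 3 arrays; the dashed line is the filter at 4.7. The circles and squares of each gene overlap, and Itgam and Cd14 average below the filter; brightness of different probes is not comparable between genes.

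Genes often higher in activated or phagocytic microglia likewise gave no call. Of 13 listed, 9 were tested, 4 with values above 0 and 5 below, with a median of -0.02 (log2) and none passing. Itgb2, the beta chain of complement receptor 3, had the largest value of all 27, from a dim probe at the 39.7th percentile of all probe means. It read 5.64, 5.53 and 5.92 in Gb5-deficient mice, against 5.64, 5.33 and 5.35 in wild-type mice. Wild-type array 1 reached the middle of the Gb5-deficient arrays, and the difference was 0.26 (SE 0.15, 95% interval -0.07 to 0.59, adjusted p = 0.612). It was 0.36 without wild-type array 1, when the groups did not overlap, as for 20.6% of all genes, and 0.15 without Gb5-deficient array 6.

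Itgam, which encodes the alpha chain of the same receptor and the marker CD11b, read 3.24, 3.14 and 3.18 in Gb5-deficient mice, against 3.18, 3.25 and 3.23 in wild-type mice. Its only probe lay at the 8.6th percentile of all probe means, under the filter, so it could not speak for the gene. Cd14, the co-receptor for bacterial lipopolysaccharide, lay just under the filter with 4.40, 4.48 and 4.69 in Gb5-deficient mice, against 4.73, 4.67 and 4.78 in wild-type mice. Those groups overlapped by 1 array on each side, and the difference was -0.21 (SE 0.12, unadjusted p = 0.109 with every probe tested and no filter).

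Among immunoreceptor genes, Trem2, the lipid-sensing receptor needed for the disease-associated state, read 5.76, 5.51 and 5.97 in Gb5-deficient mice, against 5.70, 5.28 and 5.67 in wild-type mice. The Trem2 probe was dim, at the 40.6th percentile of all probe means. Array 6 was highest and wild-type array 2 lowest. The difference of 0.20 (SE 0.16, adjusted p = 0.694) was 0.06 without wild-type array 2, 0.08 without Gb5-deficient array 6 and 0.31 without Gb5-deficient array 5. Tyrobp, the adaptor that carries the Trem2 signal, averaged 9.84 ± 0.16 in Gb5-deficient mice and 9.92 ± 0.10 in wild-type mice (log2, SD, n = 3 each), a difference of -0.08. Fcer1g, the shared signalling chain of Fc receptors, had a difference of 0.03. Fcgr3, a low-affinity receptor for IgG, read 8.28, 8.36 and 8.49 in Gb5-deficient mice, against 8.21, 8.28 and 8.17 in wild-type mice. The Gb5-deficient arrays lay at the upper end, with array 4 level with wild-type array 2 at 2 decimals, and the difference was 0.16 (SE 0.10, adjusted p = 0.630), from 0.10 to 0.21 with 1 array left out.

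Among lysosomal and phagocytic genes, Ctsd, the aspartic protease cathepsin D that many brain cells make, had the smallest SE of the 27 (0.08). It averaged 10.58 ± 0.09 in Gb5-deficient mice and 10.60 ± 0.01 in wild-type mice, a difference of -0.02 with an interval from -0.21 to 0.16. Ctss, cathepsin S, the protease that trims the invariant chain of MHC class II, read 10.40, 10.60 and 10.49 in Gb5-deficient mice, against 10.78, 10.61 and 10.48 in wild-type mice. The highest reading came from wild-type array 1, and the difference was -0.13 (SE 0.10, adjusted p = 0.685). Cd68, a lysosomal membrane glycoprotein of macrophages, had a difference of -0.02. Lyz2, the lysozyme of myeloid cells, had one of -0.10.

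All 3 chains of C1q had values below 0 and none passed. C1qb read 11.20, 11.29 and 11.40 in Gb5-deficient mice, against 11.28, 11.63 and 11.40 in wild-type mice, a difference of -0.14 (SE 0.10, 95% interval -0.37 to 0.09, adjusted p = 0.656). Its other probes gave -0.13 and -0.07, and with 1 array left out the difference ran from -0.22 to -0.04. C1qa read 7.01, 7.18 and 7.14 in Gb5-deficient mice, against 7.38, 7.14 and 7.20 in wild-type mice, a difference of -0.13 (SE 0.11, adjusted p = 0.697). Gb5-deficient array 5 reached into the wild-type range of C1qa and array 6 was level with its lower end. With array medians subtracted or a second quantile normalization the groups of C1qa did not overlap, as for 13.7% and 14% of all genes. C1qc read 7.79, 7.75 and 8.12 in Gb5-deficient mice, against 7.70, 8.08 and 7.93 in wild-type mice, a difference of -0.02 (SE 0.14). The sign held for all 3 chains under both of those scalings. That of C1qc turned without wild-type array 2 (0.07), Gb5-deficient array 4 (0.03) or array 5 (0.05), and with array weights (0.01).

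The 5 genes grouped here as pan-leukocyte lay close to 0, from -0.03 to 0.02. That name is loose, since Aif1 is also used as a marker of microglia. Aif1, which encodes the actin-bundling protein Iba1, averaged 7.25 ± 0.32 in Gb5-deficient mice and 7.23 ± 0.13 in wild-type mice (log2, SD, n = 3 each). Laptm5, a lysosomal transmembrane protein, had a difference of 0.01, Ly86, a partner of a Toll-like receptor homologue, -0.01, the tetraspanin Cd53 -0.03, and Ptprc, the phosphatase CD45, -0.02. Mrc1, the mannose receptor that marks macrophages of the brain's borders more than microglia, read 9.23, 9.39 and 9.43 in Gb5-deficient mice, against 9.21, 9.29 and 9.46 in wild-type mice, a difference of 0.03 (SE 0.11).

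Other probes of these genes passed no threshold either. Of the 29 genes, 8 had more than 1 probe, which added 13 probes, of which 7 lay above the filter. Of those 7, 6 had the sign of the probe that stood for the gene; the exception was a Laptm5 probe at -0.08. The other 6 were dim, with means of at most 4.39 in Gb5-deficient mice and 4.33 in wild-type mice (log2).

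Arrays of the same genotype also differed from each other. Gb5-deficient array 4 was the lowest of the 6 arrays for 13 of the 27 genes and the highest for 0, while over all genes it was lowest for 8.58% and highest for 11.6%. Gb5-deficient array 5 was the highest for 10 of the 27 and the lowest for 1, where over all genes it was highest for 27.7% and lowest for 19.6%. Array 5 read above array 4 for 23 of the 27 genes, with a median gap of 0.26 (log2); over all genes it did so for 55.2%, with a median of 0.03. The gap was widest for Cx3cr1 (0.81), Aif1 (0.63) and Siglech (0.56), and it ran the other way for Trem2 (-0.24), Ptprc (-0.20), Itgb2 (-0.10) and C1qc (-0.04). These gaps are from the probe that stood for each gene. Another Csf1r probe reversed the order, with 6.60 on array 4 and 6.43 on array 5. So did another Laptm5 probe, with 5.11 and 4.94. The rest of the other probes above the filter kept it, though a Csf1r probe did so only narrowly (8.66 and 8.70). The median range over the 3 arrays was 0.37 in Gb5-deficient and 0.24 in wild-type mice, beside 0.27 and 0.22 over all genes. The median size of the difference between genotypes was 0.04, beside 0.11 over all genes. That difference compares means of 3 arrays, so its size cannot be set against a range over single arrays. These counts were made after the values were seen and have no test.

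**Figure D3:**
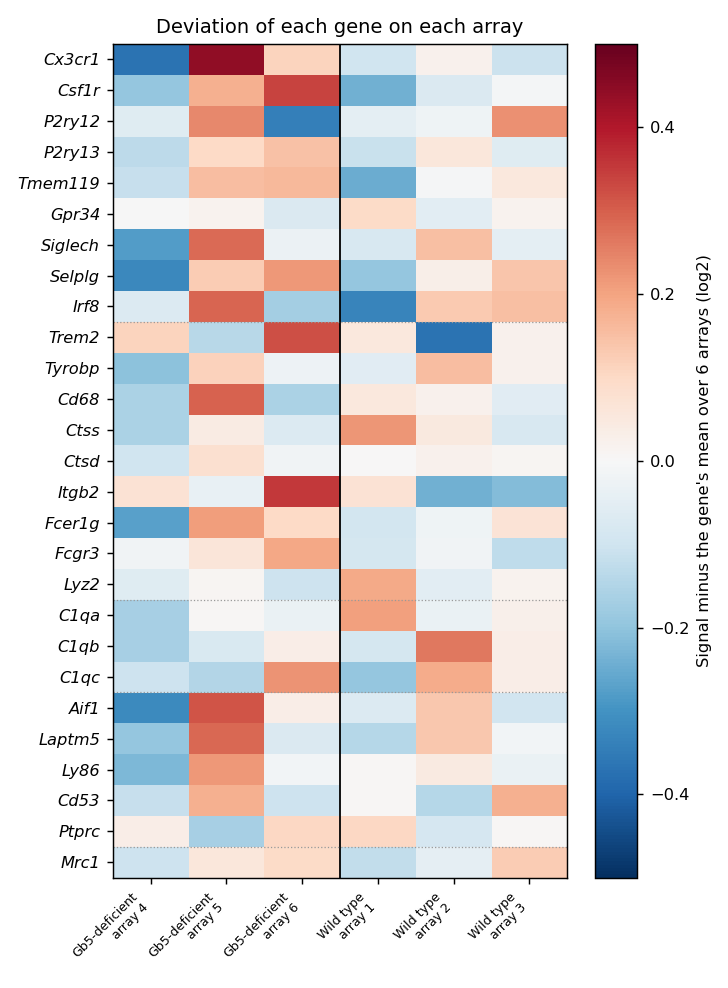
Signal of each of the 27 tested genes (rows) on each array (columns, Gb5-deficient left of wild type) minus that gene's mean over the 6 arrays (log2, red above and blue below, colours saturating at 0.5). Array 4 is blue for most homeostatic and pan-leukocyte genes and array 5 red, while Trem2, Itgb2 and Ptprc do not follow. The C1q chains follow on array 4 only, with median deviations of -0.16 there and -0.08 on array 5.

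Other genes of microglial identity, 17 tested, followed the same arrays only in part: array 5 was the highest for 6 and array 4 for 0, while array 4 was the lowest for 3. Markers of cerebellar neurons ran the other way. Of 10, array 5 was the lowest for 6 and array 4 the highest for 5, with wild-type array 1 the highest for the remaining 5, and their mean signal was 12.60, 12.25 and 12.40 in Gb5-deficient mice, against 12.59, 12.41 and 12.38 in wild-type mice. The mean signal of the 27 microglial genes was 8.06, 8.32 and 8.25 in Gb5-deficient mice, against 8.16, 8.21 and 8.21 in wild-type mice. The part that the neuronal signal or the piece of tissue taken has in the microglial values was not tested. Without array 4, 20 of the 27 genes lay above 0, with a homeostatic median of 0.16, beside a median of 0.037 over all genes. Csf1r and Cx3cr1 then had unadjusted p-values under 0.05 by limma, while the lowest adjusted p was 0.228. The share of all genes under 0.05 was not counted in that setting, so these genes cannot be set against it. Leaving out array 5 left 9 above 0.

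Upstream sequence is shown for members that could be matched. The factor PU.1, encoded by Spi1, governs myeloid gene expression and binds purine-rich sites; a core of that kind, AGGAAGT, was searched on both strands of windows reaching 250 bases before to 50 after the start site. Windows from RefSeq (GRCm38.p6) matched 23 of the 31 genes. The motif was in at least 1 window of 9 of them (39.1%): C1qb, C1qc, Cd53, Ctss, Lyz2, Mrc1, P2ry12, Ptprc and Spp1. Over all 27025 genes with a window it was in 10.7%, and over all 32851 windows in 9.35%. A match is a string of letters and not a known binding site, and base composition was not matched. Spi1 averaged 5.59 in Gb5-deficient and 5.52 in wild-type mice (log2), a difference of 0.07 (adjusted p = 0.838).

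The 250 bases before the start site are printed for a homeostatic receptor, both C1q chains with a window and an enzyme of phagocytes, to show where the motif lies (capitals; ACTTCCT is the same motif on the opposite strand). All lie on the minus strand of GRCm38.p6 and are written in the direction of the gene. P2ry12 (chr3:59262986-59263235) has it starting 52 bases before the start site, C1qb (chr4:136886201-136886450) 53, Lyz2 (chr10:117282273-117282522) 100 and C1qc (chr4:136892915-136893164) 195.
P2ry12: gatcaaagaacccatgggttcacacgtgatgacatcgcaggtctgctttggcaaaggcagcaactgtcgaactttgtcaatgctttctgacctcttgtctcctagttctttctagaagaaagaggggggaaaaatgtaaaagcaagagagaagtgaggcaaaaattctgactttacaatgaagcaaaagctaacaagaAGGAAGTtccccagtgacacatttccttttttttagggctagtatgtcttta
C1qb: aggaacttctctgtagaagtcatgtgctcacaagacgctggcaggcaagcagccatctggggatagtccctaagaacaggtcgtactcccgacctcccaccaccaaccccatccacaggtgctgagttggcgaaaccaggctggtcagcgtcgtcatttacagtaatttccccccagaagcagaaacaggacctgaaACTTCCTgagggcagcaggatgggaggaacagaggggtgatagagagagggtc
Lyz2: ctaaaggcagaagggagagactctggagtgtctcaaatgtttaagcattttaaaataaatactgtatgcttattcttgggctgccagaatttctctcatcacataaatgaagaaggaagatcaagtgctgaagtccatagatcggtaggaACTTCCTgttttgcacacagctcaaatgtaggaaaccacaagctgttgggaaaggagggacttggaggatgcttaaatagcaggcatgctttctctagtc
C1qc: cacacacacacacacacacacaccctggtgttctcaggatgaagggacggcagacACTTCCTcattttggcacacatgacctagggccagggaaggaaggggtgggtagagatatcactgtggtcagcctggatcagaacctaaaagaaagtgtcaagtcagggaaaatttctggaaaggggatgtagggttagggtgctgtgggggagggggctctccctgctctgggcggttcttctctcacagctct
In P2ry12 and C1qb the motif sits at nearly the same distance from the start, in opposite orientation. Neither gene passed the test between genotypes.

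No gene of the 12 related lists passed, so the wider pathways gave values only. Genes are named below mainly for the largest differences in each list, a choice that favours groups without overlap. Over all genes tested the groups did not overlap in 14.9%. Per list, genes without overlap numbered from 0 to 4, the latter of 19 lysosomal genes. Identity genes of microglia outside the 31 (17 tested) had 9 values above and 8 below 0 and a median of 0.01 (log2), from -0.03 to 0.06 with 1 array left out. Crybb1, a crystallin that microglia express, read 7.12, 7.33 and 7.10 in Gb5-deficient mice, against 6.74, 7.05 and 6.91 in wild-type mice, without overlap, with a difference of 0.28 (SE 0.13, adjusted p = 0.584). Tgfbr1, the receptor through which TGF-beta keeps microglia homeostatic, had a difference of -0.21 (SE 0.09, adjusted p = 0.574), also without overlap. Its dimmer probes gave -0.32, without overlap, and 0.15, with overlapping groups. With its probes averaged the difference was -0.13. Immunoreceptor signalling genes (14 tested) had a median of 0.02, from -0.02 to 0.07 with 1 array left out. Among them the inhibitory IgG receptor Fcgr2b had a value of 0.16, without overlap, and the adaptor Pik3ap1 one of -0.54 (SE 0.53), with arrays from 4.16 to 6.12 in Gb5-deficient mice and from 4.54 to 6.05 in wild-type mice.

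Ligands and partners of microglial receptors (9 tested) had 6 values above 0 and a median of 0.11. That median was 0.02 without wild-type array 1 or without Gb5-deficient array 5, and 0.01 with array weights (5 above, 4 below). Their largest were Il34, the neuronal ligand of Csf1r, at 0.19 and Gas6, the ligand of Axl and Mertk, at 0.18 and 0.03 without Gb5-deficient array 5. The other Csf1r ligand, Csf1, had 0.14 and Cx3cl1 had 0.11.

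Complement genes outside the 31 (14 tested) had 9 values above and 5 below 0, with a median of 0.07. That median was 0 (4 above, 5 below) with the filter at the 50th percentile. With a gene's probes averaged it was 0.03 (8 above, 6 below). Cfp, which encodes properdin, the stabiliser of the alternative pathway convertase, read 10.20, 10.06 and 9.99 in Gb5-deficient mice, against 10.67, 10.28 and 10.67 in wild-type mice. All Gb5-deficient arrays lay below all wild-type arrays, with a difference of -0.46 (SE 0.13, unadjusted p = 0.00592, adjusted p = 0.479). The other Cfp probe gave -0.13 with overlapping groups. Masp1, a protease of the lectin pathway, had 0.29, the anaphylatoxin receptors C3ar1 and C5ar1 0.05 and -0.13, and the inhibitor Clu 0.06.

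Genes of the disease-associated state outside the 31 (13 tested) had a median of 0.04, from -0.02 to 0.03 with 1 array left out. Lgals3, galectin 3, read 6.93, 7.28 and 7.47 in Gb5-deficient mice, against 6.93, 6.63 and 6.79 in wild-type mice. Gb5-deficient array 4 lay just above the highest wild-type array, and the difference was 0.44 (SE 0.16, adjusted p = 0.553). Apoe, the lipid carrier, had 0.17 and 0.02 without array 5. Lysosomal genes (19 tested) had 13 values above 0 and a median of 0.05, which was -0.01 without Gb5-deficient array 6. Ppt1, a palmitoyl thioesterase, had -0.41 (SE 0.09, adjusted p = 0.390) without overlap, yet its 4 other probes ran from -0.14 to 0.12, so its probes disagreed. Neu1, a sialidase, had 0.26.

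Inflammatory cytokines and sensors were mostly too dim to test, with 8 of 20 above the filter and a median of 0. Tlr4, the lipopolysaccharide receptor, read 5.13, 5.49 and 5.25 in Gb5-deficient mice, against 5.77, 5.73 and 6.12 in wild-type mice. The groups did not overlap, with a difference of -0.58 (SE 0.15, unadjusted p = 0.00422, adjusted p = 0.442), and its 3 other probes, all dim, gave from -0.10 to 0.14. Casp1, which matures interleukin 1 beta, had 0.27.

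Markers of the other immune cells that brain tissue can hold did not pass either. Genes of border-associated macrophages (15 tested) had 10 values below 0 and a median of -0.10, which was -0.01 without Gb5-deficient array 5. Within them, the MHC class II gene H2-Aa read 5.84, 5.63 and 5.83 in Gb5-deficient mice, against 6.50, 6.22 and 6.22 in wild-type mice. The groups were apart, with a difference of -0.55 (SE 0.13, unadjusted p = 0.00231, adjusted p = 0.390), and a second H2-Aa probe gave -0.50, while 2 dimmer ones gave -0.30 and -0.02. Cd74, the invariant chain that accompanies class II, read 6.44, 6.58 and 6.44 in Gb5-deficient mice, against 6.86, 7 and 6.92 in wild-type mice, also apart, with -0.44 (SE 0.11, adjusted p = 0.407). H2-Ab1, the class II beta chain, had -0.07 with overlapping groups. Others below 0 were not class II genes. Among them Maf had -0.42 (unadjusted p = 0.0251 and adjusted p = 0.573 by limma) with overlapping groups. Ms4a7 had -0.24, Dab2 -0.20 and the scavenger receptor Cd163 -0.12. The 5 values of this list above 0 were Cbr2 0.29, Folr2 0.18, Clec10a 0.17, Stab1 0.11 and F13a1 0.01.

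Monocyte and neutrophil genes (5 of 16 tested) had 5 values above 0 (4 without Gb5-deficient array 6) and a median of 0.20. With no filter, 13 had a value, 7 above and 6 below 0, with a median of 0.10. The filtered list was led by S100a8 and S100a9 at 0.37 each; its median was 0.50 without wild-type array 1 and 0.11 without Gb5-deficient array 4. S100a9 read 8.91, 8.70 and 9 in Gb5-deficient mice, against 8.94, 8.33 and 8.21 in wild-type mice, so wild-type array 1 lay among the Gb5-deficient arrays. The list's mean signal was 7.17, 6.82 and 7.18 in Gb5-deficient mice, against 7.18, 6.68 and 6.59 in wild-type mice, an order over the arrays that the microglial genes did not share. Lymphocyte genes (3 of 16 tested) had a median of -0.09, with Cd79b at -0.11 and Cd4 at -0.09, and a median of 0.06 without wild-type array 3. Genes of reactive astrocytes (10 tested) had a median of 0; Serpina3n, a protease inhibitor induced in them, had 0.50 (SE 0.17, adjusted p = 0.553) without overlap, Cd44 -0.28 and Gfap 0.03. The cerebellar neuron list (10 tested) had a median of -0.05, with Gabra6 at -0.18 and the Purkinje cell gene Car8 at -0.13. All 3 values turned without Gb5-deficient array 5, to a median of 0.03 (8 above 0), 0.02 for Gabra6 and 0.07 for Car8. The median was also 0.01 without wild-type array 1 and 0.02 with array weights.

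**Figure D4:**
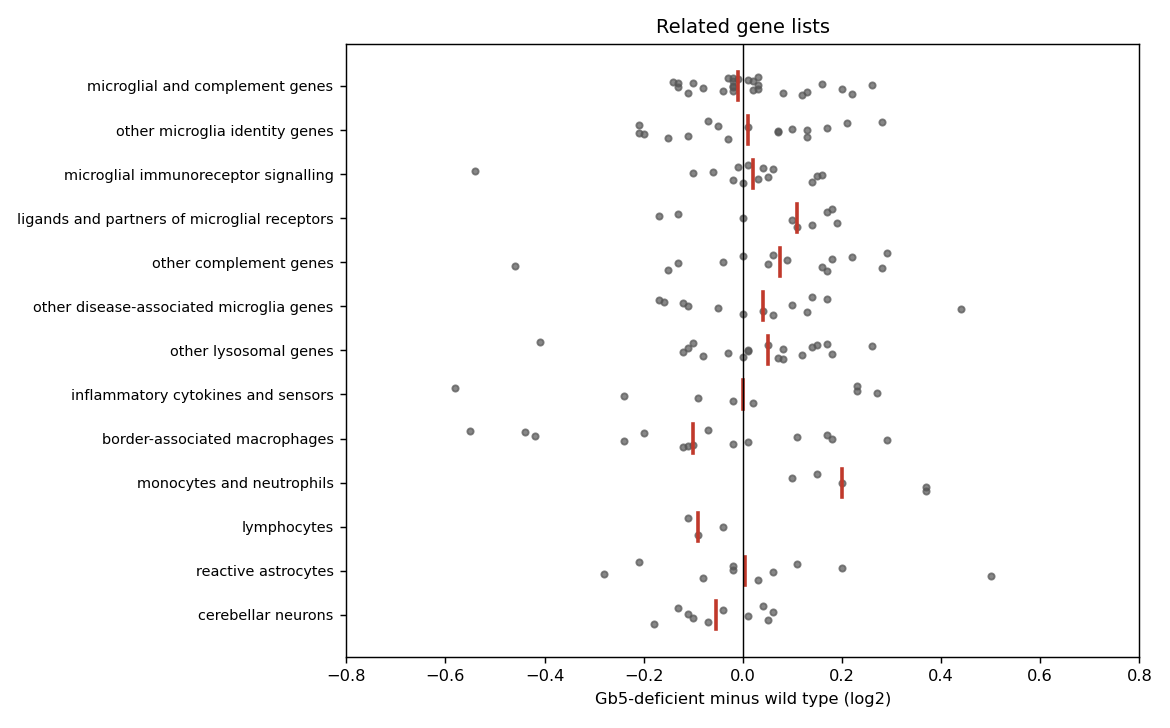
Difference, Gb5-deficient minus wild type (log2, horizontal axis), of each tested gene in the 27 microglial and complement genes and in the 12 related lists; points are genes and red bars list medians. Medians run from -0.10 to 0.20, and the 27 genes lie between -0.14 and 0.26.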

How the data were processed

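RNA of 6 mice (3 Gb5-deficient, 3 wild type) was extracted with Trizol and labelled with biotin, per the labels' protocols. The authors deposited log2 values, 1 per probe and array; RMA and Partek are named in the submitters' processing notes, without versions. RMA equalises the arrays, which hides any shift shared by most transcripts. Groups came from the sample titles. The members and lists were chosen with earlier results of these data known. Of 45101 probes, 64 controls were left out, 34945 had 1 gene, 932 several and 9160 none listed; symbols were checked through Entrez identifiers (34741 matched, GRCm38.p6). limma 3.58.1 in R 4.3.3 (intensity trend, two-sided) was fitted over 14067 genes, with Benjamini-Hochberg adjustment and a threshold of 0.05, and was tested on simulated data. The labels say biological replicates without naming the mice, and the number of arrays limits precision. No permutation test was used for single genes, since 3 against 3 arrays cannot reach the threshold. Neither dates of scanning nor present calls entered, so batches were not looked for. Named genes are all members, Gnb5, and of each related list the 2 with the largest difference, since none passed. After their values were seen, H2-Ab1, Csf1, Cx3cl1, C3ar1, C5ar1, Clu, Spi1, Cd163, Gfap, Xist and Eif2s3y were added. So were Cbr2, Folr2, Clec10a, Stab1, F13a1, Maf, Ms4a7 and Dab2. Alternatives were each array left out, other filters, scalings, probe rules and variance models.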

Additional observations from a re-analysis of the deposited data

How the results depend on the processing

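The count of microglial and complement genes past the threshold was 0 under every alternative tried: leaving out each array, dropping or raising the filter (to the 50th percentile), both rescalings, averaging or separating a gene's probes, and 3 variance models. The lowest adjusted p over those settings for genes was 0.228, without Gb5-deficient array 4. The unadjusted p was under 0.05 for Csf1r and Cx3cr1 there, and for Itgb2 without wild-type array 1 and with array weights. The share of all genes under 0.05 was not counted in those settings. The number whose groups did not overlap was 1 of 27 (C1qa) with array medians subtracted, where 13.7% of all genes did not overlap, and 1 (C1qa) with a second quantile normalization, where 14% did not. It ran from 0 to 6 with 1 array left out, where 19.3% to 36.4% of all genes did not overlap. The homeostatic median ran from -0.059 to 0.162 and the activation median from -0.073 to 0.057 with 1 array left out, highest without Gb5-deficient array 4 for both; the cause was not tested. The number of the 27 genes with a value above 0 ran from 9 to 20. Without Gb5-deficient array 6, whose sex signals and Gapdh ratio differed, 13 were above 0, as with all arrays. They were not all the same genes, since 21 of the 27 kept their sign. The lowest adjusted p was then 0.918, against 0.612 with all arrays. Without that array Itgb2 fell from 0.26 to 0.15, Csf1r from 0.22 to 0.11 and Trem2 from 0.20 to 0.08 (log2). Dim probes limit Itgam and Cd14, which did not pass with no filter either (29 genes tested, lowest adjusted p 0.656). No paired analysis was possible because the labels give the genotypes no shared replicate numbers.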
